A study of Mus musculus with 12 samples.

Results

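Intermediate filaments are the rope-like polymers that give animal cells and their nuclei mechanical strength. The genes described here are 10 members of that family, listed by symbol: the keratins *Krt8*, *Krt18*, *Krt7*, *Krt19* and *Krt23*, the cytoplasmic filament genes *Vim* and *Nes*, and the lamins *Lmna*, *Lmnb1* and *Lmnb2*. All 10 were found among the 24340 gene entries of each of 2 deposited tables, one of mouse livers and one of NIH 3T3 cells. Their entries were found by gene name, and the 10 genes were chosen with earlier results of these data known.

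Keratins form filaments only as pairs of a type I and a type II chain, and the pair *Krt8* (type II) and *Krt18* (type I) is the one that hepatocytes make. *Krt7* and *Krt19* are typical of the bile duct epithelium. Vimentin, encoded by *Vim*, is the filament of fibroblasts and other mesenchymal cells. A change between keratin and vimentin filaments is a classic marker of transitions between epithelial and mesenchymal states. Lamins line the inner face of the nuclear envelope, where *Lmna* gives the A-type lamins A and C by alternative splicing, and *Lmnb1* and *Lmnb2* give the B-type lamins.

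RNA-seq was compared in 3 *Hnf4a* cKO livers against 3 control livers, and in 3 samples of HNF4A EE 3T3 cells against 3 samples of control 3T3 cells. The cKO mice were adults with floxed *Hnf4a* alleles and a tamoxifen-inducible Cre under the *Albumin* promoter, and their livers were taken on day 7 of tamoxifen. Control mice are given in the methods as *Hnf4a* fl/fl, Cre negative and without tamoxifen, whereas the legend that describes the model gives them as the same genotype without tamoxifen, so effects of tamoxifen, of Cre and of *Hnf4a* loss cannot be told apart. NIH 3T3 is a mouse embryonic fibroblast line. HNF4A EE cells carried a lentivirus with mouse *Hnf4a* (isoform 2) and eGFP on a single RNA, and control cells a vector without insert. Both were harvested 72 h after transduction.

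The tables hold 1 FPKM for each gene and group as the authors' value, so all values below are single group values without a spread, and no test across samples could be run. FPKM scales the number of fragments by transcript length and by library size, so levels of different genes within a group may be compared. A gene is called higher or lower when its log2 ratio of FPKM + 1 was at or beyond 0.5 in size and its mean FPKM over both groups was 1 or more, which 10909 entries of the livers and 10521 of the 3T3 cells reached. These calls describe the size of a difference, and whether it exceeds the spread between animals or cultures was not tested. Counts of called genes below stand beside shares over all such entries of 14.8% higher and 19.1% lower in the livers. In the 3T3 cells these shares were 22.5% and 22.9%. *Hnf4a* itself had 144 FPKM in cKO livers against 275 in control livers, and 1758 FPKM in HNF4A EE cells against 0.639 in control cells, in the direction of the labels. The FPKM summed to 458704 in cKO livers and 601955 in control livers. *Alb*, the albumin gene, is listed at 0 in both liver groups, so these sums do not cover all RNA of the liver. Rescaling each group to the same sum moved the median log2 ratio of expressed entries by 0.36 in the livers and by 0.14 in the 3T3 cells, and a call of a named gene or a count of a list in the livers that changed with it is given beside the value. A gene under 1 FPKM in one group that passed the limit through the other group had to differ, so such genes are counted apart below.

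The sequence before the start site is shown for 4 genes: *Krt8* and *Krt18*, which lie close together and were the most abundant keratins of the liver, *Vim* (chr2:13574311-13582826), which had the largest difference, and *Lmna*, which was called in opposite directions in the livers and in the 3T3 cells. *Krt8* (chr15:101996711-102004342) and *Krt18* (chr15:102028216-102032026) lie on chromosome 15 with start sites 23.9 kb apart, 2 other RefSeq genes between them (*Gm36026* and *Gm41404*), and are transcribed away from each other. The windows hold the 250 bases before the start site, 5′ to 3′ on the strand of the gene, from RefSeq on GRCm38.p6 (the mm10 assembly). *Lmna* has several annotated start sites, and that of the locus in the deposited tables (chr3:88481148-88503352) is shown. The letters searched on both strands were the TATA box TATAAA, the GC box GGGCGG, the CCAAT box itself, the AP-1 site TGANTCA, the core motif of nuclear receptors such as HNF4A, which is AGGTCA, and the E-box CACCTG. Matches stand in capitals.
*Krt8* (chr15:102004343-102004592, minus strand): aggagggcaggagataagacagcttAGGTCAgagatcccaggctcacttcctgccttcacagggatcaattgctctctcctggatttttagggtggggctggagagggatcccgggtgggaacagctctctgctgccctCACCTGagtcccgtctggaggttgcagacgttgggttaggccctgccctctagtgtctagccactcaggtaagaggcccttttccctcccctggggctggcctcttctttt
*Krt18* (chr15:102027966-102028215, plus strand): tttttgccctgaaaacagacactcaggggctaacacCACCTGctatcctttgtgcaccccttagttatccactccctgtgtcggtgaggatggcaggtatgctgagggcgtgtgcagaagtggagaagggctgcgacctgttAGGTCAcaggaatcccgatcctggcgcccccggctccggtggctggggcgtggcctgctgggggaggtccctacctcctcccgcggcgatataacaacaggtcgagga
*Vim* (chr2:13574061-13574310, plus strand): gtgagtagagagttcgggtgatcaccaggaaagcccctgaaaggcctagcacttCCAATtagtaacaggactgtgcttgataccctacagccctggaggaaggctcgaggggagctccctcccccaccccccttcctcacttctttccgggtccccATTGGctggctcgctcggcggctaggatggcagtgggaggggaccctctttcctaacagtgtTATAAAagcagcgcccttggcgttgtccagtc
*Lmna* (chr3:88503353-88503602, minus strand): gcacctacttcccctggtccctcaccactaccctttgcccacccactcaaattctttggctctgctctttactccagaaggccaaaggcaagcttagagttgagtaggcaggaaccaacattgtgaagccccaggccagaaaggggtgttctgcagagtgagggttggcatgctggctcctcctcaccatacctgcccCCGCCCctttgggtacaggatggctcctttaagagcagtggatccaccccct

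The windows of *Krt8* and *Krt18* each held 1 AGGTCA and 1 CACCTG on the strand of the gene. In *Krt8* the AGGTCA began 225 bases and the E-box 111 bases before the start site, and in *Krt18* they began 108 and 214 bases before it. Over all 32851 windows of this length in the RefSeq table, 14.0% held AGGTCA and 17.2% held CACCTG on either strand. *Vim* had a TATAAA that began 32 bases before its start site, a motif that 12.4% of the windows held, and 2 CCAAT motifs, of which 1 was on the opposite strand (33.8% of the windows held at least 1). *Lmna* had 1 GGGCGG on the opposite strand, 52 to 47 bases before the start site, against a share of 32.7%. None of these matches overlapped another, and a match describes letters and not a bound site. TGANTCA, which 6.75% of the windows held, was in none of the 4 sequences.

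In the livers, the keratin pair of hepatocytes was the most abundant of the 10 genes in both groups, and its type I chain was the one called higher. *Krt18* had 149 FPKM in cKO livers against 99.9 FPKM in control livers, a log2 ratio of 0.57. *Krt8*, its type II partner, had 108 FPKM in cKO livers against 92.7 FPKM in control livers, a log2 ratio of 0.22 that was not called. The level of *Krt8* exceeded those of 97.4% of all entries in cKO livers and of 96.2% in control livers. Within a group, *Krt8* stood at 0.729 times the FPKM of *Krt18* in cKO livers and at 0.928 times in control livers, so the excess of the type I chain was larger in the cKO livers. With each group rescaled to the same sum, *Krt8* was called higher as well (log2 ratio 0.61) and *Krt18* stood at 0.96. The GENCODE annotation places the long non-coding gene *Gm36026* over the start of *Krt8* on the other strand, and it lists 1 pseudogene named after *Krt8*. The strand setting is not given in the sources used here, so reads of *Krt8* and of this antisense gene cannot be told apart, and reads of the pseudogene could be split with *Krt8*.

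The keratins of the bile duct were near 1 FPKM, far under the hepatocyte pair. *Krt19*, a type I keratin, had 2.35 FPKM in cKO livers against 0.940 FPKM in control livers, a log2 ratio of 0.79 on the FPKM + 1 scale (1.26 after rescaling). It passed the limit through the cKO livers alone and was not called with a mean FPKM of 5 or more. *Krt7*, a type II keratin, had 1.15 FPKM in cKO livers against 0.692 FPKM in control livers, and its mean stayed under the limit for a call. The sum of *Krt8* and *Krt18* was 73.4 times that of *Krt7* and *Krt19* in cKO livers and 118 times in control livers. *Krt23*, a type I keratin, went the other way. It had 0.541 FPKM in cKO livers against 4.77 FPKM in control livers, 8.81-fold lower and a log2 ratio of −1.90, and 3.82% of the expressed entries had a lower ratio. It passed the limit on the mean through the control livers alone.

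Markers of bile duct cells are given beside *Krt19*. Of 10 cholangiocyte markers apart from the keratins, 7 passed the limit on low values, 5 were higher and none lower. Of the 5, 4 (*Sox9*, *Epcam*, *Tspan8* and *Bicc1*) were under 1 FPKM in control livers and passed through the cKO livers alone. *Spp1*, which encodes osteopontin and was the most abundant of the list, had 21.2 FPKM in cKO livers against 26.0 in control livers, and *Pkhd1* had 1.24 against 1.21 in the same order, neither of them called. The FPKM of all 10 markers summed to 50.04 in cKO livers against 34.1 in control livers. None of them was listed at 0, but *Cftr*, a chloride channel of bile duct cells, had only 0.0583 FPKM in cKO livers against 0.0507 in control livers. *Sox9*, a transcription factor of bile duct cells, had 6.77 FPKM in cKO livers against 0.536 in control livers, and *Tspan8*, a membrane protein, had 9.21 against 0.519 FPKM in the same order. *Epcam*, the epithelial adhesion molecule, had 1.43 FPKM in cKO livers against 0.706 in control livers. The part of cell composition in the values of *Krt19* and *Krt7* was not tested, and in bulk tissue more cells of a type and more RNA per cell cannot be told apart.

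Neither of the other cytoplasmic filament genes was called in the livers. *Vim* had 11.1 FPKM in cKO livers against 12.5 FPKM in control livers, a log2 ratio of −0.15, and its level exceeded those of 81.0% and 81.4% of all entries in these groups. The ratio turned to 0.22 with the groups rescaled to the same sum. *Krt8* and *Krt18* together stood at 23.1 times the FPKM of *Vim* in cKO livers and at 15.4 times in control livers. *Nes* encodes nestin, a filament protein of progenitor cells in nerve and muscle. It had 0.215 FPKM in cKO livers against 0.776 FPKM in control livers and stayed under the limit on the mean.

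Bulk liver RNA does not show which cells the *Vim* RNA came from. Markers of cells other than hepatocytes, and then of hepatocytes, are given beside it. Of 12 stellate cell and fibroblast markers, 11 passed the limit, 5 were lower (2 with the groups rescaled to the same sum) and none higher (1 when rescaled). Of the 5, *Acta2* passed through the control livers alone and was no longer called after rescaling (−0.45). The sums were 126 FPKM in cKO livers and 163 FPKM in control livers. Endothelial markers had 5 lower (none when rescaled) and 1 higher of 10, with sums of 76.8 FPKM in cKO livers and 107 FPKM in control livers. Macrophage markers had 1 higher and none lower of 10, and their sums were 356 FPKM in cKO livers and 341 FPKM in control livers. The 1 higher was *Marco*, with 43.4 FPKM in cKO livers against 3.91 in control livers. Each of the other 9 had a lower FPKM in cKO livers and was not called, so *Marco* alone made the sum higher. Of the 8 neutrophil markers in the table, 3 passed and all 3 were higher, with sums over the 8 of 39.7 FPKM in cKO livers and 4.02 FPKM in control livers. Most of the sum in cKO livers was *S100a8* (17.5 FPKM, against 1.45 in control livers) and *S100a9* (17.3 against 1.81). The third, *Retnlg*, is listed at 0 in control livers and passed through the cKO livers alone. The other neutrophil markers stayed under 1 FPKM in both groups. Lymphocyte markers summed to 4.83 FPKM in cKO livers against 8.01 in control livers, with 2 of 10 past the limit and none called. Mesothelial markers summed to 4.61 FPKM in cKO livers against 2.32 in control livers, and the 1 of 5 past the limit, *Msln*, was higher and passed through the cKO livers alone. Their part in the value of *Vim* was not tested. The label of hepatocytes was met by 9 of 10 hepatocyte markers at 451 FPKM or more in control livers. Of the 9 that passed the limit, 6 were lower and 1 higher (2 after rescaling), with sums of 23354 FPKM in cKO livers and 51298 FPKM in control livers. Much of this difference was *Apoa2*, with 358 FPKM in cKO livers against 19440 in control livers. The 1 higher was *Fgb* (5472 against 3290 FPKM). *Apoa1* (11880 against 9012) and *Cps1* (1669 against 1553) also had more FPKM in cKO livers but were not called before rescaling.

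The A-type lamin gene was higher in cKO livers, and neither B-type gene was called. *Lmna* had 42.2 FPKM in cKO livers against 25.7 FPKM in control livers, 1.64-fold higher with a log2 ratio of 0.70 (1.09 after rescaling). *Lmnb1* had 2.07 FPKM in cKO livers against 3.06 FPKM in control livers, a log2 ratio of −0.40 that was not called (−0.14 after rescaling). Adding 0.1 instead of 1 to each FPKM brought *Lmnb1* past the threshold for lower. *Lmnb2* had 4.07 FPKM in cKO livers against 5.27 FPKM in control livers, with a log2 ratio of −0.31 that became 0.02 when the groups were rescaled to the same sum. The ratio of *Lmna* to the sum of *Lmnb1* and *Lmnb2* does not depend on how a group is scaled. It was 6.87 in cKO livers and 3.08 in control livers, 2.23-fold higher in the cKO livers.

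Cell cycle markers are given beside the lamins. Of 12 such markers, 11 passed the limit in the livers, 8 were higher (9 after rescaling) and none lower. Of the 8, 6 were under 1 FPKM in control livers and passed through the cKO livers alone, which leaves 2. The markers had sums of 49.2 FPKM in cKO livers and 27.5 FPKM in control livers. *Rrm2*, a subunit of ribonucleotide reductase, had the largest log2 ratio of the list, with 10.5 FPKM in cKO livers against 1.94 in control livers. *Pcna*, the most abundant of the list, went the other way, with 14.7 FPKM in cKO livers against 18.0 in control livers, and was not called. *Tyms* (2.35 against 2.03 FPKM) and *Mcm2* (1.59 against 1.27) were not called either, but *Mcm2* was higher after rescaling (0.53). The part of cell division in the values of the lamins was not tested.

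In all, 8 of the 10 genes, *Krt19* and *Krt23* through one group alone, passed the limit on low values in the livers. Of these, 3 were higher (*Krt18*, *Krt19* and *Lmna*), 1 was lower (*Krt23*) and 4 were not called (*Krt8*, *Vim*, *Lmnb1* and *Lmnb2*). Over all expressed entries 14.8% were higher and 19.1% lower, with 1616 and 2088 entries. The median log2 ratio of the 8 was 0.04, beside −0.01 over all expressed entries, whose quartiles were −0.35 and 0.30. Rescaled to the same sum, 4166 entries were higher and 1262 lower, and 4 of the 10 genes were higher and 1 lower. The plot of levels by group shows how far the hepatocyte pair stood above the other keratins.

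**Figure D1:**
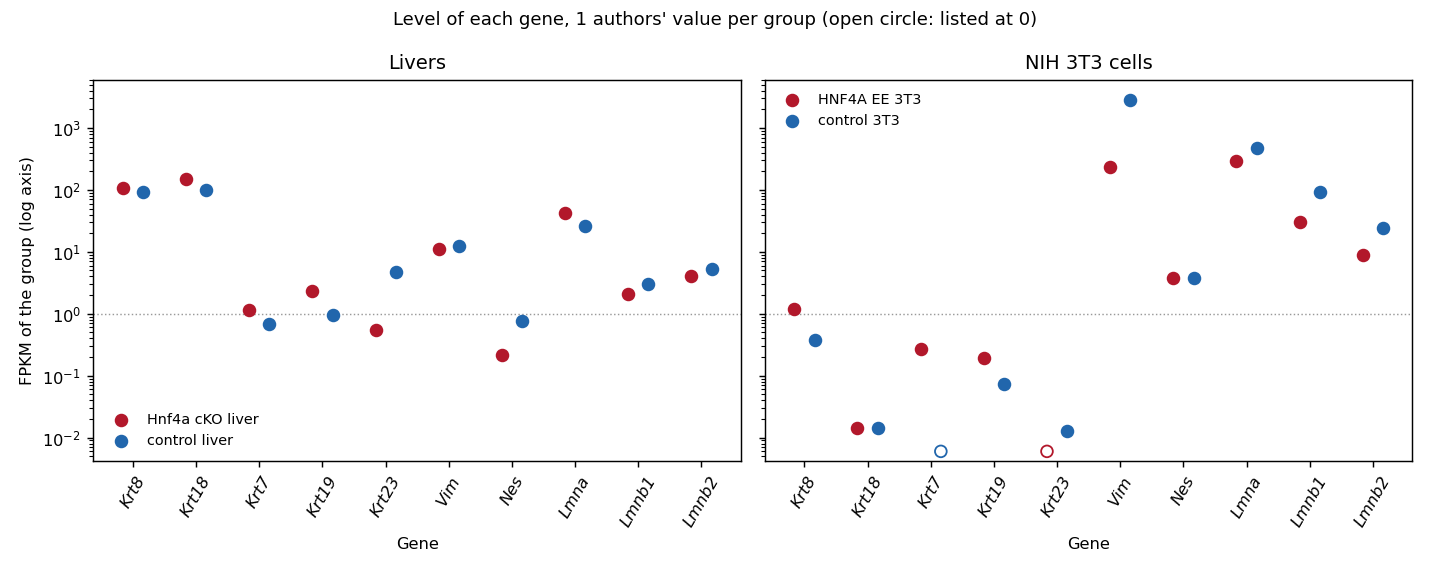
Level of each of the 10 genes as the authors' FPKM per group (log axis) in livers (left, Hnf4a cKO against control) and in NIH 3T3 cells (right, HNF4A EE against control), with 1 point per group and no error bars since no sample values are given; open circles at the foot are listed at 0, and the dotted line marks 1 FPKM. *Krt8* and *Krt18* lead in the livers, at 108 and 149 FPKM in cKO livers, and *Vim* stands at 237 FPKM in HNF4A EE cells against 2863 in control cells.

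In 3T3 cells the vimentin gene showed the largest difference of the 10. *Vim* had 237 FPKM in HNF4A EE cells against 2863 FPKM in control cells, 12.1-fold lower with a log2 ratio of −3.59. In rank of FPKM it was number 295 of all entries in HNF4A EE cells and number 9 in control cells. Of the expressed entries, 0.171% had a lower ratio. *Vim* made up 41.2% of the summed FPKM of the 10 genes in HNF4A EE cells and 82.7% in control cells. At 237 FPKM its level still exceeded those of 98.8% of all entries.

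The keratins stayed near the foot of the scale in both groups of 3T3 cells. *Krt8* had 1.18 FPKM in HNF4A EE cells against 0.384 FPKM in control cells, 3.07-fold higher, but its mean was under the limit for a call. *Krt18*, the type I partner of *Krt8* in hepatocytes, had 0.0142 FPKM in either group. *Krt19* had 0.195 FPKM in HNF4A EE cells against 0.0724 FPKM in control cells. *Krt7* had 0.273 FPKM in HNF4A EE cells and is listed at 0 in control cells, while *Krt23* is listed at 0 in HNF4A EE cells and had 0.0126 FPKM in control cells. None of the 5 keratins reached a mean of 1 FPKM. The sum of *Krt8* and *Krt18* was 0.00502 times the FPKM of *Vim* in HNF4A EE cells and 0.000139 times in control cells, so vimentin RNA far exceeded that of the keratin pair in both groups.

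All 3 lamin genes were lower in HNF4A EE cells, the B-type by more than the A-type. *Lmna* had 294 FPKM in HNF4A EE cells against 476 FPKM in control cells, 1.62-fold lower with a log2 ratio of −0.70. *Lmnb1* had 30.2 FPKM in HNF4A EE cells against 92.8 FPKM in control cells, 3.08-fold lower with a log2 ratio of −1.59. *Lmnb2* had 8.95 FPKM in HNF4A EE cells against 24.6 FPKM in control cells, 2.75-fold lower with a log2 ratio of −1.36. *Lmna* was 7.50 times the sum of the B-type genes in HNF4A EE cells and 4.06 times in control cells, a 1.85-fold difference that is independent of the scaling. *Lmnb1* stood at 3.37 times the FPKM of *Lmnb2* in HNF4A EE cells and at 3.77 times in control cells, so both B-type genes were lower by similar factors. As *Vim* was lower by more than *Lmna*, the ratio of *Vim* to *Lmna* was 0.808 in HNF4A EE cells and 6.01 in control cells.

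The balance of A-type to B-type lamin RNA was thus higher in cKO livers and in HNF4A EE cells than in their own controls, although *Lmna* was higher in the cKO livers and lower in the HNF4A EE cells. The comparisons share no samples. No spread can be put on either ratio.

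**Figure D2:**
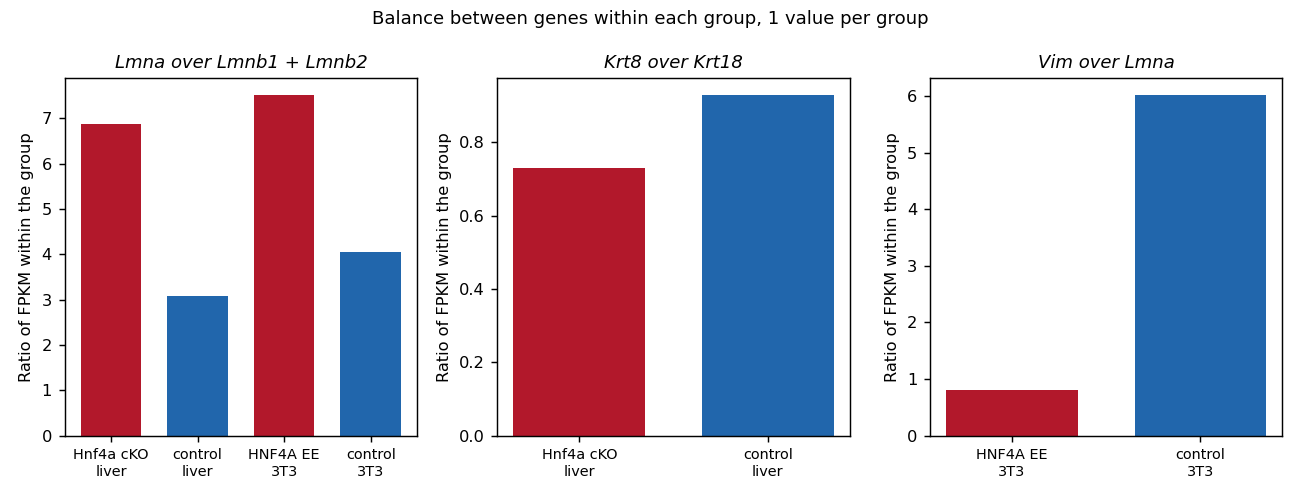
Ratio of FPKM between genes within each group (bars from 0, 1 value per group, no error bars): *Lmna* over the sum of *Lmnb1* and *Lmnb2* in all 4 groups, *Krt8* over *Krt18* in the livers, and *Vim* over *Lmna* in the 3T3 cells. The lamin ratio is 6.87 in cKO livers against 3.08 in control livers, and 7.50 in HNF4A EE cells against 4.06 in control cells.

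*Nes* was close to its control value. It had 3.82 FPKM in HNF4A EE cells against 3.74 FPKM in control cells, a log2 ratio of 0.02. Markers of cell division were lower in HNF4A EE cells, as the lamins were. The livers differed, with 8 of these markers higher, 6 of them through the cKO livers alone. There *Lmna* was higher and neither *Lmnb1* nor *Lmnb2* was called. All 12 cell cycle markers were lower in HNF4A EE cells (11 with the groups rescaled to the same sum), with sums of 577 FPKM in HNF4A EE cells and 1303 FPKM in control cells. *Mki67*, the marker of proliferating nuclei, had 14.1 FPKM in HNF4A EE cells against 36.8 in control cells, and *Top2a*, a topoisomerase of dividing cells, had 63.8 against 163 FPKM in the same order. The part of these markers in the lamin values was not tested either.

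Of the 12 stellate cell and fibroblast markers, 4 passed the limit in 3T3 cells and 3 were lower, of which *Col3a1* passed through the control cells alone. *Col1a2*, a chain of type I collagen, had 6.61 FPKM in HNF4A EE cells against 443 FPKM in control cells. *Dcn*, the matrix gene decorin, was near 0 in both (0.0213 FPKM in HNF4A EE cells, 0.0106 in control cells), and *Lum*, which encodes lumican, is listed at 0 in both. The fibroblast label was therefore met by the collagens and *Pdgfra* (11.6 FPKM in HNF4A EE cells, 9.32 in control cells) and not by these other markers. None of the hepatocyte, endothelial or lymphocyte markers reached a mean of 1 FPKM. Among macrophage markers 2 passed and 1 was higher (*Csf1r*), and among neutrophil markers 1 passed and was higher (*S100a8*), both of which passed through the HNF4A EE cells alone. Further, among cholangiocyte markers 3 passed and 1 was lower (*Spp1*, with 37.7 FPKM in HNF4A EE cells against 425 in control cells), and the 1 mesothelial marker that passed was not called.

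In total, 5 of the 10 genes passed the limit in the 3T3 cells, of which 4 were lower (*Vim*, *Lmna*, *Lmnb1* and *Lmnb2*), none was higher and *Nes* was not called. Of all expressed entries 22.9% were lower and 22.5% higher, with 2406 and 2363 entries. The median log2 ratio of the 5 was −1.36, beside −0.01 over all expressed entries with quartiles of −0.45 and 0.44. Rescaled to the same sum, the 4 calls stayed, and all entries gave 3079 higher and 1957 lower. With a threshold of 1 in place of 0.5, *Lmna* was no longer called in either comparison, and neither were *Krt18* and *Krt19* in the livers.

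**Figure D3:**
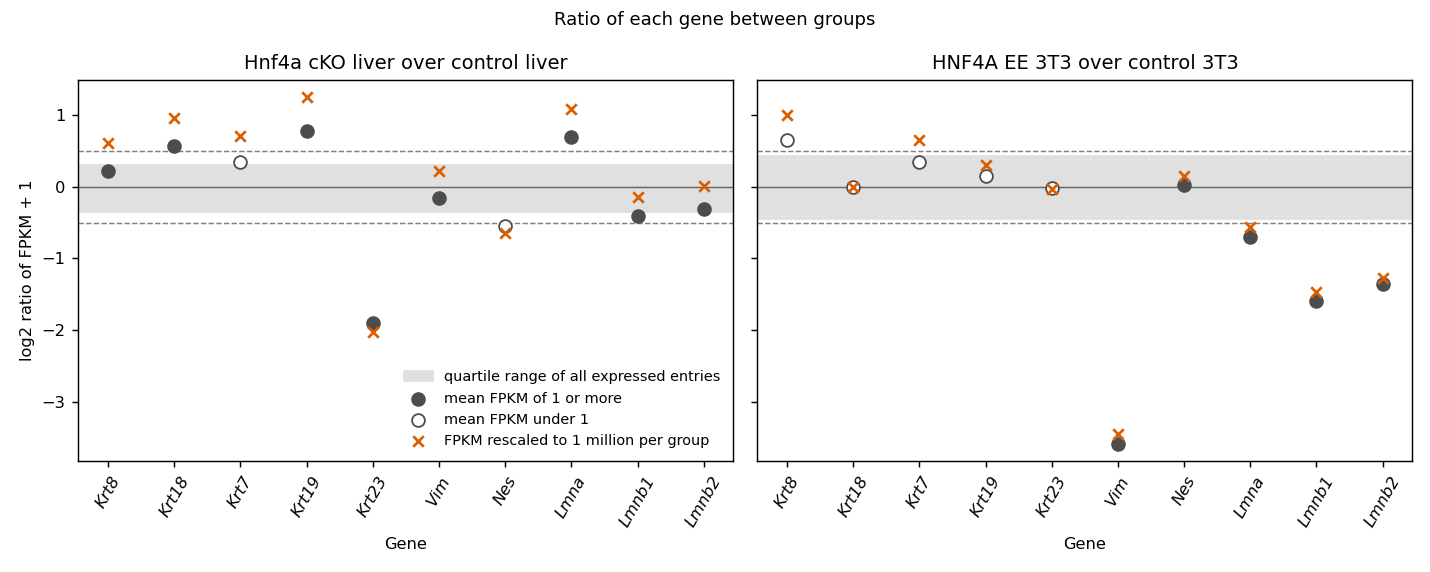
log2 ratio of FPKM + 1 of each gene in Hnf4a cKO over control livers (left) and in HNF4A EE over control 3T3 cells (right); filled circles have a mean FPKM of 1 or more, open circles a lower mean, crosses the same ratio after rescaling each group to the same sum, the band the quartiles of all expressed entries, and dashed lines the threshold of 0.5. *Vim* at −3.59 in the 3T3 cells is the largest difference, and the crosses of the livers lie above the circles for all genes but *Krt23* and *Nes*.

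Other filament genes were mostly near 0 in both tables. Of 23 type I keratins outside the list of simple epithelia, 1 passed the limit in the livers (*Krt10*, not called). Among 3T3 cells 1 passed, *Krt14*, a keratin of basal epidermis, with 0.349 FPKM in HNF4A EE cells against 13.4 FPKM in control cells, which passed through the control cells alone. Of 22 other type II keratins none passed in the livers, while in the 3T3 cells 2 passed and both were higher. *Krt80* had 8.97 FPKM in HNF4A EE cells against 3.32 FPKM in control cells. *Krt76*, a keratin of the mouth lining, had 6.46 FPKM in HNF4A EE cells against 0.00821 FPKM in control cells, and passed through the HNF4A EE cells alone. The keratins that exceeded 1 FPKM in control 3T3 cells were thus *Krt14* and *Krt80* and not those of simple epithelia. Among 6 keratins of simple epithelia, which are the 5 above and *Krt20*, 4 passed in the livers, with 2 higher (3 after rescaling) and 1 lower, and none in the 3T3 cells. Of 11 other cytoplasmic filament genes, *Des*, which encodes desmin, alone passed in the livers (1.43 FPKM in cKO livers, 1.71 in control livers, not called), and *Bfsp1*, a filament gene of the eye lens, alone passed in the 3T3 cells (2.10 FPKM in HNF4A EE cells, 0.613 in control cells, higher and past the limit through the HNF4A EE cells alone).

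Linkers tie filaments to junctions and to other parts of the cell. Their counts stand beside shares over all expressed entries of 14.8% higher and 19.1% lower in the livers (38.2% and 11.6% after rescaling). In the 3T3 cells the shares were 22.5% and 22.9% (29.3% and 18.6% after rescaling). Of 14 genes in this list, 9 passed in the livers, with 2 higher and 3 lower and a median log2 ratio of −0.36. With the groups rescaled to the same sum the median was 0.01 and 1 was lower, *Jup*, since *Plec* (−0.45) and *Macf1* (−0.19) were no longer called. *Jup*, which encodes plakoglobin of desmosomes and adherens junctions, had 5.40 FPKM in cKO livers against 13.0 in control livers. *Plec*, which encodes the filament linker plectin, had 3.61 FPKM in cKO livers against 6.67 in control livers, and *Ppl*, periplakin, had 10.8 against 6.03 FPKM in the same order. *Macf1*, a linker of actin and microtubules, was lower by a log2 ratio of −0.50, with 4.15 FPKM in cKO livers against 6.31 in control livers. Of the same list 8 passed in the 3T3 cells, with 4 higher and 1 lower and a median of 0.78. Rescaled to the same sum, *Macf1* was called higher as well (0.64) and the median was 0.95. *Pkp3*, a plakophilin of desmosomes, had 24.8 FPKM in HNF4A EE cells against 3.40 in control cells. *Jup* had 27.6 FPKM in HNF4A EE cells against 7.05 in control cells, *Pkp2* had 18.1 against 8.06, and *Dst*, which encodes dystonin, had 42.6 against 16.8 in that order. *Dsp*, the plakin that anchors keratins to desmosomes, stayed at 0.0370 FPKM in HNF4A EE cells and 0.0146 FPKM in control cells. Several desmosome linkers were therefore higher in HNF4A EE cells while desmoplakin and the keratins of simple epithelia stayed near the foot of the scale.

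Proteins that bind lamins at the nuclear envelope were compared with the lamins. The shares over all expressed entries were again 14.8% higher and 19.1% lower in the livers (38.2% and 11.6% after rescaling). For the 3T3 cells they were 22.5% and 22.9%. Of 19 such genes, 16 passed in the livers, with 4 lower and none higher (5 higher and 3 lower after rescaling) and a median log2 ratio of −0.12 (0.25 after rescaling). *Tor1a*, the torsin ATPase, had 17.9 FPKM in cKO livers against 42.4 in control livers. *Sun2*, which links lamins to the cytoskeleton, had 10.1 FPKM in cKO livers against 21.9 in control livers, and *Tmem201* had 4.96 against 8.37 in the same order but was not called after rescaling (−0.34). Of these genes 17 passed in the 3T3 cells, with 6 lower and 2 higher and a median of −0.16. Rescaled to the same sum, *Banf1* was no longer lower (−0.40), *Tor1a* was called higher (0.60) and the median was −0.03. *Tmpo*, which encodes the lamina-associated LAP2 proteins, had 58.1 FPKM in HNF4A EE cells against 151 in control cells, and *Lbr*, the lamin B receptor, had 20.5 against 51.9 in the same order. *Lemd2*, an inner membrane protein, had 11.9 FPKM in HNF4A EE cells against 21.4 in control cells. *Syne3*, a nesprin, had 35.1 FPKM in HNF4A EE cells against 16.6 in control cells.

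The enzymes that mature prelamins are CAAX-box proteases and transferases. All 5 passed in both tables. None was called in the livers (2 higher after rescaling, *Fntb* and *Zmpste24*), where *Zmpste24*, the protease that cuts prelamin A, had 37.1 FPKM in cKO livers and 28.3 FPKM in control livers. A single one was higher in HNF4A EE cells, *Icmt*, the methyltransferase of the lamin C terminus, with 24.9 FPKM in HNF4A EE cells against 16.5 in control cells.

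Nuclear pore scaffold genes and the other cytoskeletal systems are given for comparison. Here too the shares over all expressed entries were 14.8% higher and 19.1% lower in the livers (38.2% and 11.6% after rescaling). Those of the 3T3 cells were 22.5% and 22.9%. Of 16 pore genes, 15 passed in each table. In the livers 2 were higher and 1 lower, with a median log2 ratio of 0.25 (9 higher, 1 lower and a median of 0.61 after rescaling), and *Nup205* had 5.78 FPKM in cKO livers against 3.19 in control livers, with *Nup93* at 6.81 against 3.88. In the 3T3 cells 4 were lower and none higher, with a median of −0.30, led by *Nup85* with 37.6 FPKM in HNF4A EE cells against 106 in control cells. Of 12 actin and tubulin genes, 10 passed in the livers with 3 higher and 2 lower (8 higher and none lower after rescaling) and a median of 0.43 (0.82 after rescaling). *Tubb2a*, a beta tubulin, had 85.4 FPKM in cKO livers against 15.4 in control livers, *Tubb6* had 27.2 against 5.84, and *Actg1*, gamma actin, had 64.4 against 25.9 in that order. All 12 passed in the 3T3 cells with 6 lower and 1 higher and a median of −0.53. Rescaled to the same sum, *Actb* was no longer lower (−0.41), *Tuba4a* was called higher (0.51) and the median was −0.39. *Tubb2a* was the 1 higher before rescaling, with 235 FPKM in HNF4A EE cells against 59.9 in control cells. *Tubb5* had 358 against 1049 and *Tubb3* had 2.67 against 26.0 in the same order. The spread of these lists is seen in the plot of log2 ratios by gene list.

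**Figure D4:**
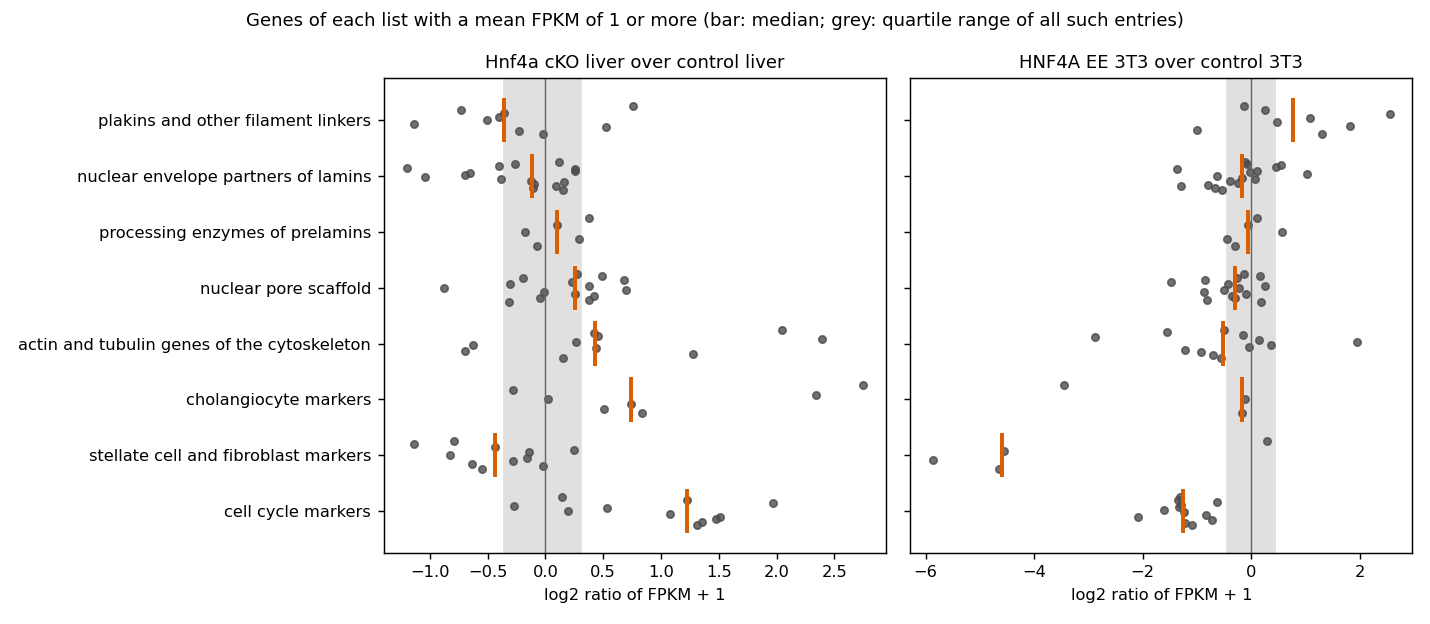
log2 ratio of FPKM + 1 of the genes of 8 lists that have a mean FPKM of 1 or more, in Hnf4a cKO over control livers (left) and HNF4A EE over control 3T3 cells (right); each point is a gene, bars are list medians and the band gives the quartiles of all such entries. Linkers have a median of −0.36 in the livers and of 0.78 in the 3T3 cells, and cell cycle markers have medians of 1.23 and −1.26.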

How the data were processed

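RNA was extracted with TRIzol from pulverized livers and from 3T3 cells, in 3 biological replicates per group as the study's methods call them. According to the methods, the authors mapped reads to the mm10 assembly by STAR and computed FPKM by Cufflinks. The versions, 2.5.0b of STAR and 2.2.1 of Cufflinks, come from the submitters' processing notes. No source used here gives the annotation, the strand setting or the library scaling. The column layout is that of Cuffdiff. Each deposited table holds 1 FPKM per gene and group, pooled by the authors, together with columns of the authors' own comparison (log2 fold change, test statistic, p-value, q-value, significance), which were not used here. No counts are given, so depth per sample, its precision, SDs and tests were not available.

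Ratios were computed as log2 of (FPKM + 1) between groups with Python 3.11.15, pandas 2.3.3 and numpy 2.4.6, and figures with matplotlib 3.10.9. Calls needed a log2 ratio of 0.5 in size, the fold threshold of the study's methods, and a mean FPKM of 1. Entries that name several genes (101 in each table) were kept as 1 entry. List genes were named if called and at 5 FPKM or more in either group, up to 4 per list and table. Genes named outside that rule, among them *Epcam*, *Cftr*, *Dsp*, *Dcn*, *Lum*, *Pdgfra*, *Krt10*, *Des*, *Bfsp1*, *Pkhd1*, *Bicc1*, *Acta2*, *Retnlg*, *Msln*, *Csf1r*, *Fntb*, *Zmpste24*, *Pcna*, *Tyms*, *Mcm2*, *Banf1*, *Actb*, *Tuba4a*, *Fgb*, *Apoa1* and *Cps1*, were chosen after their values were seen. The members and lists were chosen with earlier results of these data known. Of the 10 genes, 8 have a promoter in the RefSeq table. The alternatives were other pseudocounts, limits, thresholds and scalings. The steps were tested on simulated data whose changes were well past the threshold and at levels well above the limit. Calls near a log2 ratio of 0.5 or a mean FPKM of 1 were not tested in this way.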

Additional observations from a re-analysis of the deposited data

How the results depend on the processing

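No paired analysis was possible because the tables give 1 value per group, and for the same reason no replicate could be left out. Depth is unknown. In the livers 1 of the 10 genes was lower as reported, against 2 with a pseudocount of 0.1 or without one (*Lmnb1* added), 2 without a limit on low values (*Nes* added) and 0 with a mean FPKM of 5 or more, where *Krt23* no longer passed. With a threshold of 1, 0 of them were higher. In the 3T3 cells none was higher as reported, against 1 without a limit on low values (*Krt8*). Over all liver entries, 995 were higher with a mean FPKM of 5 or more, 554 were higher and 979 lower with a threshold of 1, and 4166 were higher and 1262 lower after rescaling to the same sum, which turned the share of higher among all calls to 76.8%, against 43.6% as reported. In the 3T3 cells that share was 61.1% after rescaling, against 49.5%, and with a threshold of 1 the counts were 958 higher and 860 lower. Fewer entries are counted by construction under stricter limits. Centring on the median changed the call of none of the 10 genes in either table, and no called gene of the 10 changed its sign under any of the 7 alternatives.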

Other observations

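A few filament genes outside those described had larger relative differences at levels under the limit for a call, and they were chosen after their values were seen. *Krt20*, a keratin of intestinal epithelium, had 0.716 FPKM in cKO livers against 0.0122 FPKM in control livers. *Krt79*, a type II keratin of skin appendages, had 0.910 FPKM in cKO livers against 0.0235 FPKM in control livers. In the 3T3 cells *Sync*, which encodes syncoilin, a filament protein of muscle, had 0.955 FPKM in HNF4A EE cells against 0.0369 FPKM in control cells. At such levels no count supports the values, and no spread between samples is known.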
